A study of Homo sapiens with 3 samples.

Results

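Effector genes that interferons switch on were read in stratified cultures of iHCE, a human corneal epithelial line immortalized with SV40. The group holds 36 genes, listed by name from what is known of the interferon response, and all 36 were measured by at least 1 probe set that names no other gene. They took 54 of the 19071 such probe sets, and were set against the 11963 genes of the whole series. Of the 36 genes 31 were above background on every array, against 45.0% of all genes. Of these 31 genes 24 had their lowest value in culture 3, against 26.4% of all genes above background. The group was proposed with a tendency to low values in culture 3 already known, so this count is a description.

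The series has a single group of 3 samples. The iHCE cells carry the large T antigen of the virus, which every sample shares. The line is known to have gained insertions and deletions in its genome at passages above those used here. Cells were seeded at passages 22 to 23 on collagen-coated filters, kept submerged for 7 days in medium with serum, insulin, cholera toxin, EGF and dimethyl sulfoxide, and then raised to an air-liquid interface with ascorbic acid. The 3 samples are independent replicate cultures of the same line, called cultures 1, 2 and 3, with electrical resistances of 489, 439 and 468 Ω x cm2. RNA of each culture was hybridized to 1 Affymetrix array that reads the 3′ part of transcripts. With 1 array per culture a difference between cultures has no replicate of its own, so differences between cultures are described here and not tested. The corneal tissue arrays of the study were not analysed here, and no gene was compared between the line and the tissue.

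Interferons are secreted by cells that sense viral nucleic acid. They bind receptors on the same and on neighbouring cells, and receptor kinases then activate a transcription factor complex, with IRF9 as its DNA-binding subunit, that recognises the interferon-stimulated response element in the promoters of its targets. The proteins made from those targets block entry, destroy or mark viral RNA, stop translation, tag proteins with ISG15 and call in lymphocytes. In the corneal epithelium these genes are part of the defense of the ocular surface against viruses such as herpes simplex.

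The response element is visible in the promoters of most of the group. RefSeq promoter windows (assembly GRCh38.p14, from 250 bases before to 50 bases after a gene's start) were held for 27 of the 36 genes. The core of the element, GAAANNGAAA, was searched on both strands, with overlapping matches allowed. It was found in 19 of these 27 genes (70.4%), against 1195 of the 27305 genes with a window (4.38%). Counted by window, it was found in 23 of 37 (62.2%), against 1255 of 35116 (3.57%). The windows of *ADAR*, *CXCL11*, *IFI16*, *IFI35*, *OAS1*, *RIGI*, *SP100* and *SP110* held no match. Not in the promoter table were *GBP2*, *IFIT2*, *IFITM2*, *IRF7*, *MX2*, *OAS2*, *OASL*, *TRIM22* and *USP18*.

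The following 60-base stretches are shown because they hold the core in genes of both patterns described later, 4 genes highest in culture 1 (*ISG15*, *IFI44L*, *IFI6*, *IFITM3*) and 4 highest in culture 2 (*IFIT1*, *OAS3*, *IFIH1*, *BST2*). Each is read 5′ to 3′ on the strand of its gene, lies upstream of the start, and has 1 match in capitals. The stretches of *ISG15*, *IFI6*, *IFITM3*, *IFIT1*, *IFIH1* and *BST2* hold a second match, which is left in lower case or overlaps the first. Matches written TTTC are read from the opposite strand.
ISG15, chr1:1013365-1013424, plus strand: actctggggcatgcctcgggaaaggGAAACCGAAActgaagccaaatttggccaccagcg
IFI44L, chr1:78620350-78620409, plus strand: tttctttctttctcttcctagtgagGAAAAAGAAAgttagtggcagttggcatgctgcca
IFI6, chr1:27672273-27672332, minus strand: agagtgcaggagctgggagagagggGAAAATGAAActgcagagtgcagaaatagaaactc
IFITM3, chr11:320861-320920, minus strand: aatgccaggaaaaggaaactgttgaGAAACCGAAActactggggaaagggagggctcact
IFIT1, chr10:89392482-89392541, plus strand: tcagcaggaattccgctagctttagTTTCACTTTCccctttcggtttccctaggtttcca
OAS3, chr12:112938306-112938365, plus strand: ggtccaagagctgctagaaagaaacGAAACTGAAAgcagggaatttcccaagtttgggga
IFIH1, chr2:162318803-162318862, minus strand: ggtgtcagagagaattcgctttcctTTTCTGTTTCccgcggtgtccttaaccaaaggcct
BST2, chr19:17405726-17405785, minus strand: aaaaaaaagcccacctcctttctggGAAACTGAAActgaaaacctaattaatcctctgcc

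In these stretches the match in capitals began 107 bases before the start in *ISG15*, 73 in *IFI44L*, 115 in *IFI6*, 35 in *IFITM3*, 116 in *IFIT1*, 143 in *OAS3*, 153 in *IFIH1* and 130 in *BST2*. Among the genes above background, 13 of the 17 with the core and 5 of the 7 whose windows lacked it were lowest in culture 3, against 26.4% of all genes above background. The core is a string of letters and not a measured binding site.

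The line expressed most of the group. Background was set from 55 genes that belong to organs such as liver, brain or retina, and a gene counted as above it when every array exceeded the 95th percentile of these genes. These thresholds were 7.09, 7.04 and 7.13 on the log2 scale in cultures 1, 2 and 3. By this rule 31 of the 36 genes (86.1%) were called, against 45.0% of all genes. *IFIT2*, *TLR3*, *GBP2*, *CXCL10* and *CXCL11* exceeded the threshold on none of the arrays. limma, asking one-sided whether the mean lies over the threshold and adjusting over all genes after Benjamini and Hochberg, passed the same 31 genes, with the highest adjusted p at 0.043 for *IFIT3*. All values that follow are log2 expression levels computed by RMA, and levels of different probe sets are not compared as amounts.

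**Figure D1:**
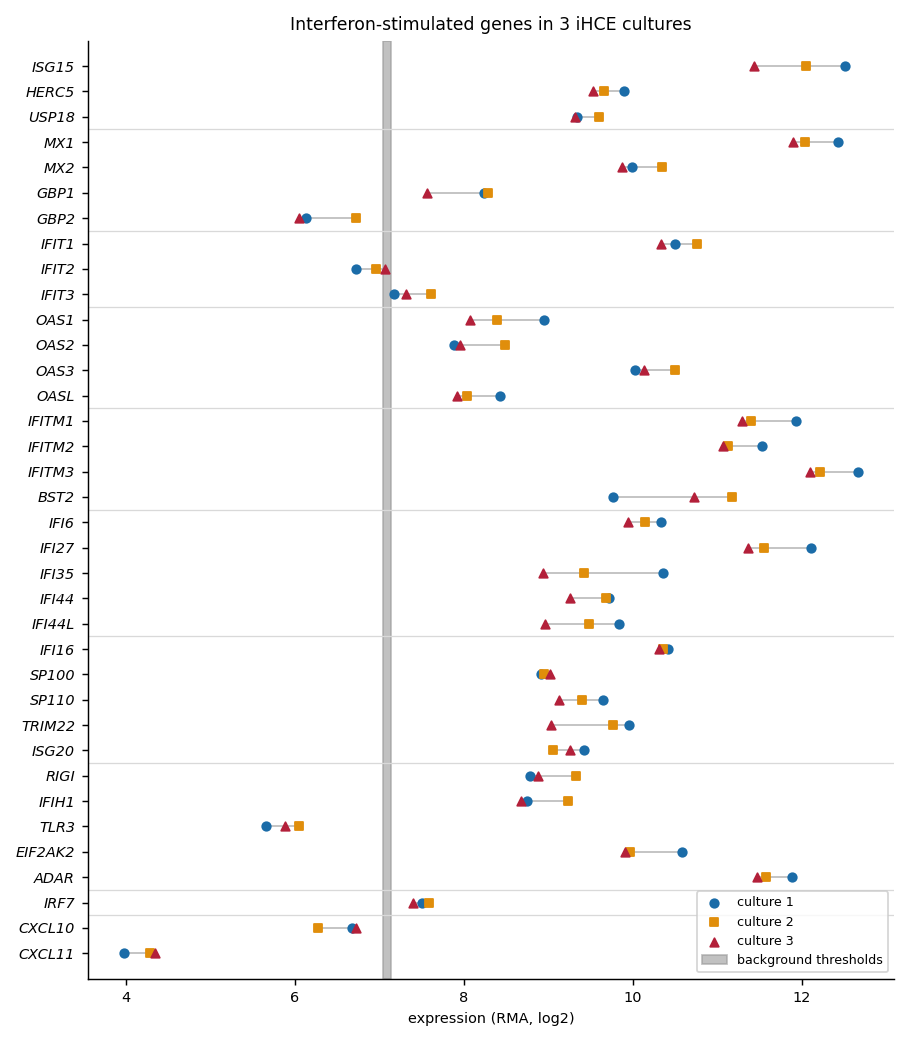
Expression level of each of the 36 interferon-stimulated genes (RMA, log2, horizontal axis) in cultures 1 (blue circles), 2 (orange squares) and 3 (red triangles), grouped by role, with a grey line over the range of a gene. The grey band spans the background thresholds of the arrays (7.04 to 7.13), and 31 genes lie to its right on every array, against 45.0% of all genes. The red triangle is the leftmost mark for 25 of the 36, against 33.4% of all genes.

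The ubiquitin-like modifier *ISG15*, which is joined to newly made proteins, read 12.51, 12.05 and 11.43 in cultures 1, 2 and 3. The difference of culture 3 was -1.08 from culture 1 and -0.62 from culture 2, at an SD of 0.54 over the cultures. *HERC5*, the main ligase of ISG15, read 9.89, 9.65 and 9.53. *USP18*, which removes ISG15 again and restrains receptor signalling, read 9.33, 9.60 and 9.31. All 3 genes were lowest in culture 3, but for *USP18* cultures 1 and 3 were nearly level, with a difference of -0.02.

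Among the interferon-induced GTPases, *MX1*, whose protein traps viral nucleocapsids, read 12.42, 12.03 and 11.89, highest in culture 1. Its relative *MX2*, known for restricting retroviruses and herpesviruses, read 9.99, 10.34 and 9.87, highest in culture 2. The guanylate-binding protein gene *GBP1* read 8.24, 8.29 and 7.56, with cultures 1 and 2 together and culture 3 apart, at -0.68 from culture 1 and -0.73 from culture 2. *GBP2* read 6.13, 6.72 and 6.04, all below the thresholds. The *MX* pair lies side by side on chromosome 21 and the *GBP* pair on chromosome 1.

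The IFIT proteins bind viral RNA that lacks the cap marks of the host. *IFIT1* read 10.50, 10.75 and 10.34 and *IFIT3* 7.17, 7.61 and 7.31, both highest in culture 2. *IFIT2* read 6.72, 6.96 and 7.07 and stayed under the threshold of each array. The 3 genes are neighbours on chromosome 10. *IFIT3* lay close to its threshold, and 2 stricter thresholds left it uncalled.

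The oligoadenylate synthetases make a messenger that activates RNase L. *OAS1* read 8.95, 8.39 and 8.07 by its brighter probe set, highest in culture 1. *OAS2* read 7.88, 8.49 and 7.95 and *OAS3* 10.02, 10.49 and 10.13. These genes adjoin each other on chromosome 12, and *OAS2* and *OAS3* were highest in culture 2 and a little higher in culture 3 than in culture 1. The contrast with *OAS1* rests on 1 probe set, since its second, given later, was also highest in culture 2. *OASL*, a relative without synthetase activity that aids RNA sensing, read 8.43, 8.03 and 7.92.

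Of the membrane restriction factors, the IFITM proteins hinder fusion of virus and cell. *IFITM1* read 11.93, 11.39 and 11.29, *IFITM2* 11.52, 11.12 and 11.06, and *IFITM3* 12.66, 12.21 and 12.09. The deviations of culture 3 from the mean of the 3 cultures were -0.25, -0.17 and -0.23, alike in the 3 genes. These genes are close copies on chromosome 11, each read here by a probe set of the kind marked as able to bind several transcripts, so the 3 readings may not be separate. A further probe set names both *IFITM2* and *IFITM1* and was left out.

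*BST2*, the tetherin that holds budding virus at the cell surface, had the largest rise of the group from culture 1 to culture 2. It read 9.76, 11.17 and 10.72, so culture 2 was 1.41 and culture 3 was 0.97 above culture 1. Among genes above background *IFIT3*, *OAS2*, *OAS3* and *RIGI* had the same order of cultures, with smaller differences. The SD of *BST2*, 0.72, was shared, as the widest of the group, by *IFI35*, which ran the other way with 10.35, 9.42 and 8.93. In *IFI35* the difference of culture 3 was -1.42 from culture 1 and -0.49 from culture 2.

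The other mitochondrial or cytoplasmic genes of the IFI series were all highest in culture 1 and lowest in culture 3. *IFI6*, of a mitochondrial protein that delays apoptosis, read 10.33, 10.14 and 9.93, and *IFI27* read 12.11, 11.55 and 11.36. *IFI44L* read 9.83, 9.48 and 8.95. In its neighbour on chromosome 1, *IFI44*, cultures 1 and 2 were nearly level at 9.71 and 9.68 while culture 3 read 9.26.

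Nuclear members split. *TRIM22*, a ubiquitin ligase with antiviral activity, read 9.95, 9.77 and 9.03, with culture 3 at -0.73 from culture 2, the nearer of the others. The nuclear body gene *SP110* read 9.64, 9.39 and 9.13, also lowest in culture 3. *SP100*, another nuclear body gene, read 8.91, 8.95 and 9.02, a range of 0.11 with culture 3 highest. The DNA sensor *IFI16* ranged over 0.10, at 10.41, 10.36 and 10.31. The exonuclease gene *ISG20* read 9.41, 9.05 and 9.25, and was the only gene above background that was lowest in culture 2.

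The cytosolic RNA sensors *RIGI* and *IFIH1* both had their peak in culture 2, with 8.78, 9.33 and 8.87 for *RIGI* and 8.75, 9.23 and 8.68 for *IFIH1*. In both genes cultures 1 and 3 differed by less than 0.1. *TLR3*, the endosomal sensor of double-stranded RNA, read 5.66, 6.05 and 5.88 and was not above background. The kinase gene *EIF2AK2*, which halts translation on double-stranded RNA, read 10.57, 9.96 and 9.91, and the RNA editing gene *ADAR* 11.88, 11.57 and 11.46. Both were highest in culture 1 by these probe sets, but a second probe set of *EIF2AK2*, given later, was highest in culture 2 as the cytosolic sensors were.

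*IRF7*, the transcription factor that amplifies type I interferon production, was just above background with 7.50, 7.59 and 7.40 and a small SD of 0.09. The lymphocyte-attracting chemokine genes *CXCL10* and *CXCL11* were not above background. *CXCL10* read 6.68, 6.27 and 6.72 and *CXCL11* 3.98, 4.29 and 4.34. Neither showed the lower value in culture 3 that most of the group had.

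Read together, the genes were mostly low in culture 3. Of the 36 genes 25 were lowest there (69.4%), against 33.4% of all genes. Of the 31 above background 24 were (77.4%), against 26.4% of all 5379 genes above background. The exceptions were *BST2*, *IFIT3*, *OAS2*, *OAS3*, *RIGI* and *SP100*, lowest in culture 1, and *ISG20*. A deviation of culture 3 of at least 0.2 below the mean of the cultures was found in 16 of the 31 genes, against 5.41% of all genes above background. A deviation of at least 0.2 above it was found in 0 of the 31, against 8.48%. The median deviation of culture 3 was -0.20 in the 31 genes and 0.01 in all genes above background. Since the group was proposed with this tendency known, the counts describe it and are not evidence gained independently.

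**Figure D2:**
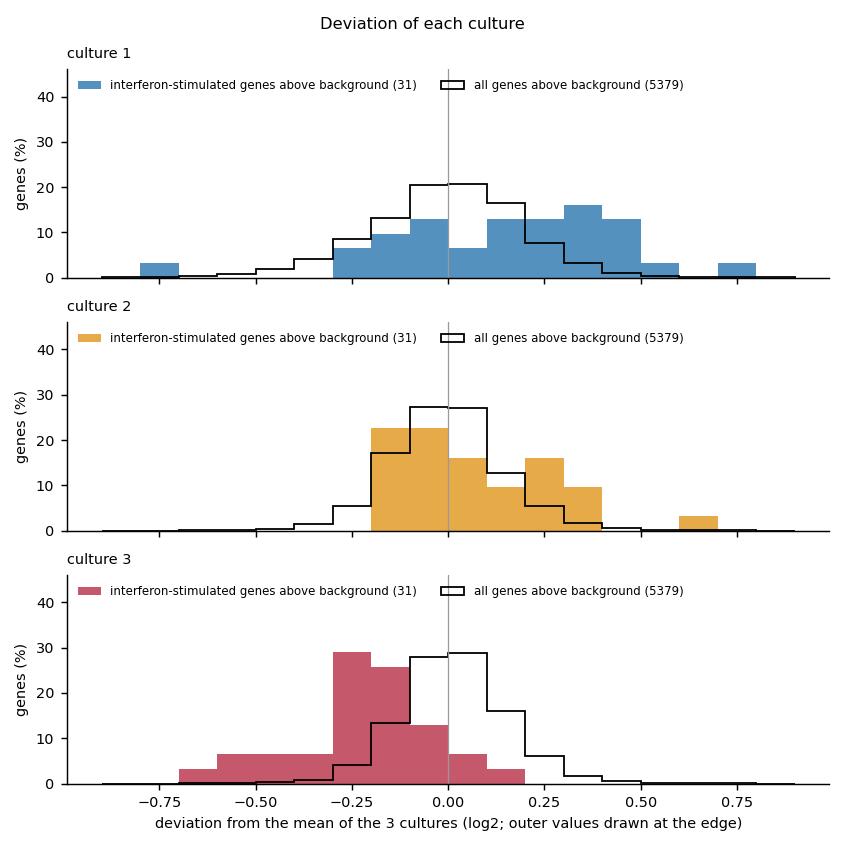
Deviation of cultures 1, 2 and 3 from the mean of the cultures (log2, horizontal axis) as the percent of genes (vertical axis), with filled bars for the 31 interferon-stimulated genes above background and a black outline for all 5379 genes above background. In culture 3 the filled bars sit to the left of the outline, with medians of -0.20 and 0.01, and in culture 1 they are spread to both sides.

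Cultures 1 and 2 did not stand in one relation to each other. Of the 31 genes 19 were highest in culture 1, against 40.0% of all genes above background, and 11 were highest in culture 2, against 27.9%. *SP100* alone was highest in culture 3. The genes highest in culture 1 included *ISG15*, *MX1*, *IFI35* and the IFITM genes, and *OAS1* and *EIF2AK2* by their brighter probe sets alone. Those highest in culture 2 were *BST2*, *GBP1*, *IFIH1*, *IFIT1*, *IFIT3*, *IRF7*, *MX2*, *OAS2*, *OAS3*, *RIGI* and *USP18*. The order of culture 1 over 2 over 3 was shown by 18 of the 31, against 17.4%. The genes also varied more than most: a range of 0.5 or more was found in 17 of the 31, against 16.9%. Their SDs (n = 3 cultures) ran from 0.05 in *SP100* and *IFI16* to 0.72 in *BST2* and *IFI35*, and the median SD was 0.268, against 0.145 for all genes above background. The group was proposed with its low values in culture 3 known. The order of the cultures and the wider spread may follow in part from that choice, and are not separate evidence.

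**Figure D3:**
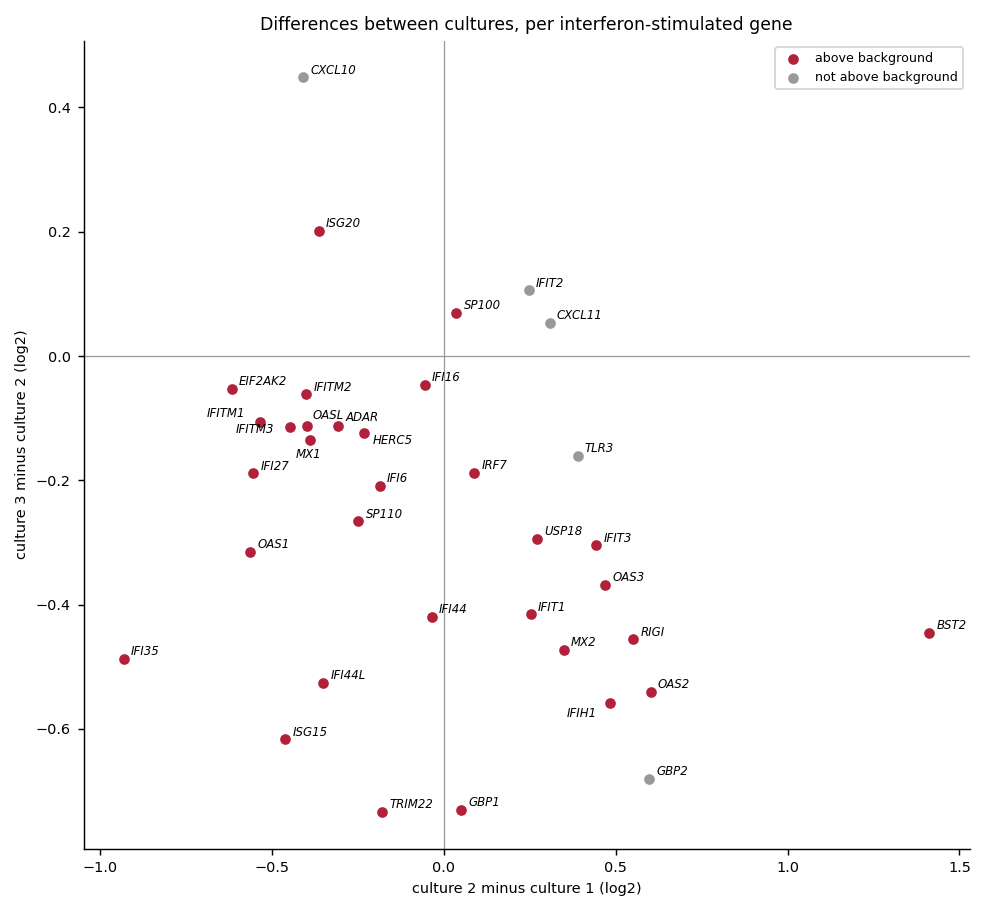
Difference of culture 2 from culture 1 (horizontal axis, log2) and of culture 3 from culture 2 (vertical axis, log2) for each of the 36 interferon-stimulated genes, red above background and grey not above background. Of the 31 red points 29 lie below 0 on the vertical axis, against 45.4% of all genes above background. On the horizontal axis the red points fall on both sides, with *IFI35* at the left end and *BST2* at the right.

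The array of culture 1 stood somewhat apart in general, so the group was also read without it. Across probe sets, which are not independent, cultures 2 and 3 correlated at a Pearson's r of 0.994, while culture 1 reached 0.988 with culture 2 and 0.987 with culture 3. Spiked poly-A controls were lowest in culture 1 at 24 of 24 probe sets. Between cultures 2 and 3 alone, 29 of the 31 genes were lower in culture 3, against 45.4% of all genes above background. The exceptions were *ISG20* and *SP100*. The median difference of culture 3 from culture 2 was -0.29 in the 31 genes and 0.02 in all genes above background. Signal from the 3′ end of the control gene *GAPDH* exceeded that from its 5′ end by 1.64, 1.34 and 1.28 in cultures 1, 2 and 3, and for *ACTB* by between 2.99 and 3.25, with culture 3 beside culture 2 for *GAPDH* and beside culture 1 for *ACTB*. Their part in the result was not tested. Among genes above background with a mean of 9 or more, 19 of 22 interferon-stimulated genes were lowest in culture 3, against 26.9% of all such genes. The count was 12 of 13 for genes read from a probe set marked as able to bind several transcripts and 12 of 18 for those read from another, against 26.7% and 26.2% of all genes of each kind. All counts in this paragraph reread values whose tendency was known when the group was proposed. They describe the group and are not independent checks of it.

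The probe sets of a gene agreed in the sign of culture 3, though not always in profile, where they were above background. Of the 54 probe sets 38 were above background and 31 were lowest in culture 3 (26 above background and 5 not), against 32.6% of all probe sets that name 1 gene. Of the 36 genes 24 had a single probe set, which nothing on the array checks, among them *ISG15*, *IFI35*, *IFI44L*, *TRIM22* and *BST2*. The other 12 had 30 probe sets. In 7 of these 12 at least 2 probe sets were above background, and in 7 of those 7 the deviations of culture 3 had 1 sign over these probe sets. The deviation was negative in *EIF2AK2*, *IFI16*, *OAS1*, *OASL* and *SP110* and positive in *ISG20* and *SP100*. Some of these deviations were very small, at -0.01 in the second probe set of *OASL* and -0.03 in that of *EIF2AK2*. Those of *ISG20* were 0.01 and 0.02. The count has no share of all genes beside it.

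Agreement in sign did not extend to the whole profile. The second probe set of *OAS1* read 7.41, 7.82 and 7.50, lowest in culture 1 and highest in culture 2 as in *OAS2* and *OAS3*, whereas the first was highest in culture 1. In *EIF2AK2* the second probe set read 7.26, 7.54 and 7.36, again lowest in culture 1. The second probe set of *OASL* read 8.28, 7.95 and 8.10, lowest in culture 2. Culture 3 was therefore lowest by the brighter probe set alone in *OAS1*, *EIF2AK2* and *OASL*. In *IFI16* and *SP110* it was lowest in both probe sets above background. The placing of culture 1 also differed between the probe sets of *OAS1* and *EIF2AK2*, whereas both of *OASL* were highest in culture 1. With every probe set counted, above background or not, the same culture was lowest throughout in 3 of the 12 genes. For *ISG20* both probe sets gave the same profile, the second at 9.20, 8.90 and 9.08. *SP110* did so in the 2 probe sets above background, the second reading 9.53, 9.33 and 9.13. In *SP100* the second probe set read 8.46, 8.51 and 8.93, a wider step to culture 3 than in the first.

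Probe sets that were not above background often went their own way. Over all probe sets the deviation of culture 3 had a single sign in 6 of the 12 genes, and the call above background was shared in 5 of the 12. For *GBP1* the dimmer probe set read 6.47, 7.36 and 7.03, so that it placed culture 1 lowest, unlike the brighter one. For *IFI44* the dimmer probe set read 6.23, 6.95 and 6.18, with culture 3 at -0.28 against -0.29 in the brighter. The dimmer sets of *IFIH1* and *OAS2* read 4.80, 4.61 and 4.92 and 6.87, 6.91 and 6.97, without the peak in culture 2 in *IFIH1* and nearly level in *OAS2*.

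**Figure D4:**
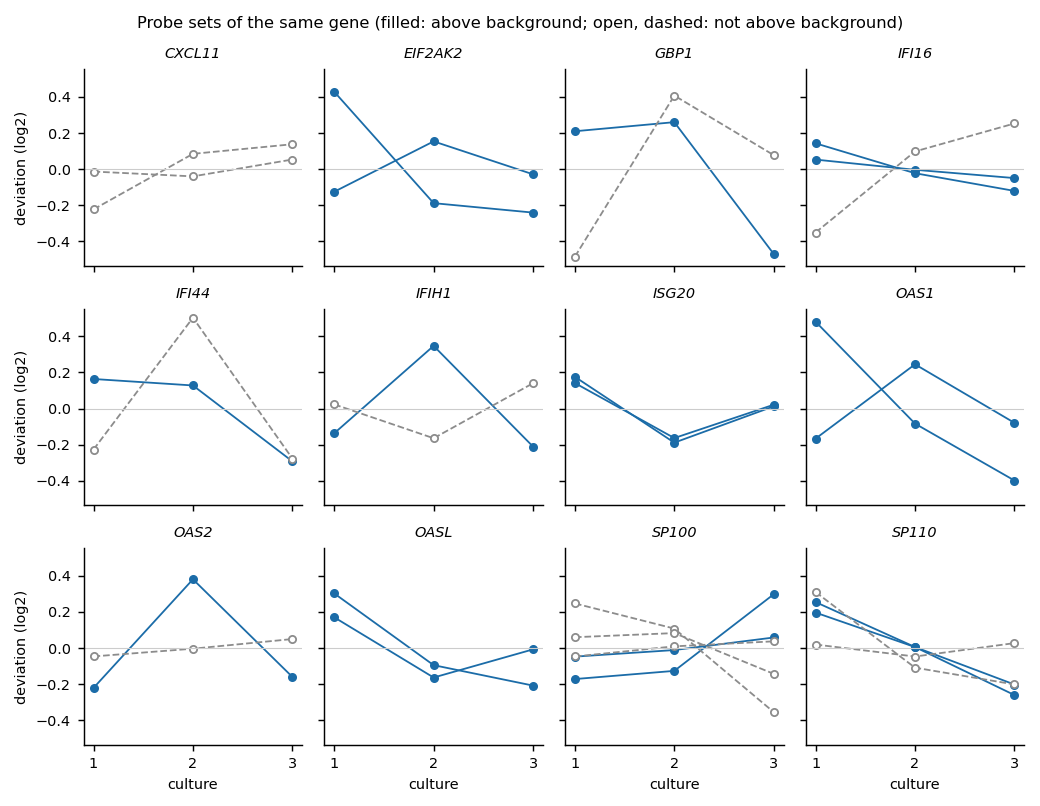
Deviation from the mean of the cultures (log2, vertical axis) in cultures 1, 2 and 3 for each probe set of the 12 interferon-stimulated genes with several, filled where the probe set was above background and open with dashed lines where it was not. Lines join the readings of a probe set and imply no order of the cultures. In culture 3 the filled points of a gene share a sign in 7 of 7 genes with at least 2, and in culture 1 they part for *OAS1* and *EIF2AK2*.

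Genes upstream of the group differed by kind. No interferon gene was above background among 14 measured (0 of 14), against 45.0% of all genes. The measured genes were those of interferons alpha, beta, omega and gamma. Interferon lambda genes were not among them, so nothing is said of these. *IFNB1*, the type I interferon most non-immune cells can make, read 5.20, 5.06 and 5.19. Of 14 measured genes of receptors, kinases, regulators and transcription factors 8 were above background (57.1%), a higher share than that of all genes. Among them were *JAK1*, a kinase of all interferon receptors (10.28, 10.20 and 10.41), and the receptor chain gene *IFNAR2*, which was higher in culture 3 (8.11, 8.06 and 8.51). *IRF9* was lowest in culture 3, with 9.19, 9.10 and 8.85. Of the 8 genes 4 were lowest in culture 3, against 26.4% of all genes above background, and their median deviation there was -0.02.

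Antigen presentation by MHC class I is also raised by interferons, and most of its genes leaned the same way by less. All 12 measured genes were above background, against 45.0% of all genes, and 10 of the 12 were lowest in culture 3, against 26.4% of all genes above background, with a median deviation of -0.10. *B2M*, the light chain of class I molecules, read 13.46, 13.17 and 12.80, the peptide transporter gene *TAP2* 7.69, 7.49 and 7.23, and *HLA-F* 12.09, 12.03 and 11.75. The exceptions were *PSME1*, lowest in culture 2, and *TAP1*, lowest in culture 1. *TAP1* read 9.49, 10.03 and 9.88, with a deviation of 0.08 in culture 3. Some genes were lowest in culture 3 by very little, *PSMB9* at -0.007 from culture 1 and *TAPBP* at -0.009 from culture 2. Class I heavy chain genes resemble each other. *HLA-B*, *HLA-C*, *HLA-E* and *HLA-F*, all lowest in culture 3, were each read by a probe set marked as able to bind several transcripts. Their readings are uncertain and may not be separate.

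**Figure D5:**
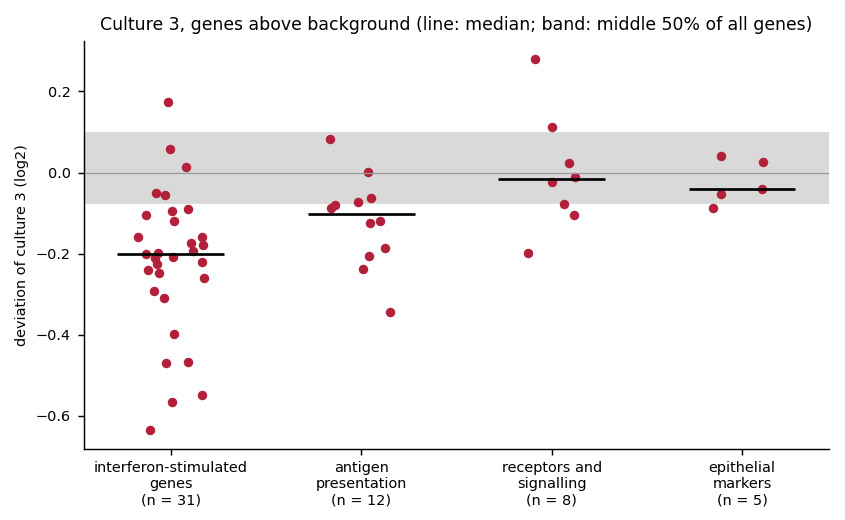
Deviation of culture 3 from the mean of the cultures (log2, vertical axis) for genes above background, 1 point per gene with the median as a line, in the 31 interferon-stimulated genes, 12 antigen presentation genes, 8 receptor and signalling genes and 5 epithelial markers. The grey band holds the middle 50% of all genes above background, from -0.08 to 0.10, and the medians are -0.20, -0.10, -0.02 and -0.04.

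No immune cell or keratocyte marker was above background on every array. Of 13 measured immune cell markers 0 were above background, with *PTPRC* at 5.21, 5.11 and 5.04, *CD3E* at 6.73, 6.21 and 6.62 and *CD3D* at 5.40, 5.42 and 5.23. The median of this list was 5.51, 5.45 and 5.23 in cultures 1, 2 and 3, below the threshold of each array. Of 6 keratocyte markers 0 were above background, *KERA*, *LUM* and *DCN* included. *THY1* was over the threshold in culture 1 alone, at 7.17, against 6.78 and 6.70 in cultures 2 and 3. Epithelial markers (*KRT8*, *KRT18*, *KRT19*, *EPCAM* and *CDH1*) were above background in 5 of 5, with *KRT18* at 12.58 ± 0.20 and *EPCAM* at 10.67 ± 0.14 (mean ± SD, n = 3). The corneal markers *KRT3* (4.86 ± 0.10), *KRT12* (5.26 ± 0.16) and *PAX6* (6.83 ± 0.28) were not above background on every array, nor were the other 3 of 6 measured. *KRT3* and *KRT12* were over the threshold on none of the arrays, and *PAX6* was over it in culture 1 alone, at 7.11, against 6.55 and 6.83 in cultures 2 and 3. In RNA from a whole culture, fewer cells expressing a gene and less RNA per cell cannot be told apart.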

How the data were processed

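Per the labels the authors used R 2.8.0 and RMA, and the deposited table gives log2 expression for 22283 probe sets in 3 columns, 1 per culture. RMA corrects background, equalizes the distributions of the arrays and compresses low values. The study's methods describe RMA over the iHCE and tissue arrays together, with a custom gene-level probe annotation. The deposited table holds the manufacturer's probe sets instead, so whether the tissue arrays entered its normalization is not settled.

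Probe sets were named through the platform annotation, and 19071 had 1 symbol, updated through the RefSeq gene table of GRCh38.p14 (12 were not found there). Each gene was read from its probe set of highest mean, and every probe set of a member was kept beside it. Listed genes without a probe set of their own were not analysed here. The background panel had 68 genes, 55 of them measured. Deviations are from the mean of the 3 cultures, and spreads are SDs over n = 3. The number of arrays limits the precision. limma 3.58.1 was run in R 4.3.3, and steps were tested on simulated data.

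The members, lists and alternatives were chosen with earlier results of these data known. All members were named. From the other lists the 3 genes above background with the largest deviation in culture 3 were named, and IRF9, IFNB1, TAP1, PSME1 and THY1. HLA-B, HLA-C, HLA-E, PSMB9 and TAPBP were named for limits of their readings. Markers above background and up to 3 others in list order were also named.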

Additional observations from a re-analysis of the deposited data

How the results depend on the processing

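Every result is a description of 3 arrays, and 16 of the 54 probe sets were not above background. Counting only probe sets not marked _x_at or _s_at left 25 of the 36 genes measured, 19 of them above background and 14 lowest in culture 3, and 29 probe sets, 14 of them lowest in culture 3. These smaller counts follow in part from the 11 genes no longer measured, *ISG15*, *IFI35*, *TRIM22* and the IFITM genes included, and *IFI44* was measured but not above background. The median deviation of culture 3 was then -0.16, and -0.16 with the mean over probe sets. Under stricter thresholds 29 genes (highest value of the panel, without *IFIT3* and *IRF7*) or 27 (median plus 3 scaled MADs, also without *GBP1* and *OAS2*) were above background, and with the mean over probe sets 30, without *IFIH1*. Of the 36 genes 31 were above background without replicate 1, 2 or 3. The count lowest in culture 3 was 26 with quantile normalization or centred arrays and 23 with the mean over probe sets. It was 18 when each other culture had to be at least 0.1 higher. Shares of all genes were not taken under these settings, nor without _x_at and _s_at probe sets. Whether the group stayed above such shares there was not tested. The count was 26 to 31 without replicate 1 or 2, when only 2 cultures are left. Of all 11963 genes 5985 (without replicate 1) or 6407 (without replicate 2) are then lower in culture 3. The median deviation was then -0.13 to -0.12, being taken from 2 arrays. Averaging probe sets moved the deviation of *IFI16* to 0.03 and that of *SP100* to -0.02. The median of the receptor and signalling genes was 0.03 without replicate 2. No paired analysis was possible because the series has 1 group.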
